A study of Mus musculus with 6 samples.

Results

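Bone marrow rebuilt after lethal irradiation and transplantation of bone marrow cells was compared with unmanipulated bone marrow, on the 2 arrays of the group named HSC and the 2 arrays of the group named BM, 4 of the 6 arrays of the study. BM was marrow of female C57BL/6J mice aged 6 to 10 weeks that had received neither radiation nor cells. HSC was marrow of female C57BL/6J mice of the same age range (CD45.1 carriers in the methods) that had been given 9.5 Gy from a caesium source and then, within hours, bone marrow cells into a vein. The labels name this group after hematopoietic stem cells, but the graft was whole bone marrow and not a sorted stem cell fraction. Marrow of 2 mice was combined for each of these 4 arrays, and the third group, MSC, in which irradiated mice had received bulk mesenchymal stromal cells, had 3 mice per array. The methods place sampling on day 21 after transplantation, while the design text names 7 months, and the files do not settle which holds for these arrays. Irradiated marrow without a graft is not among these arrays, so each value below is a distance from unmanipulated marrow and not a recovery from a measured low point.

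Marrow makes all blood cells from stem cells. Radiation kills dividing blood progenitors, and a marrow graft replaces them with donor stem cells, committed progenitors and mature cells, each of which restores its line at a pace of its own. Granulocytes usually return early, while lymphocytes pass through a wave of immature precursors before mature cells accumulate. Stroma, bone and fat cells of the marrow are largely host cells that lived through the irradiation.

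The CodeLink UniSet Mouse 20K I Bioarray carries short DNA probes and gives the brightness of each spot, and all levels below are log2 intensities after background correction and normalization. A level is comparable between arrays for 1 probe and not between probes. Between 11072 and 12510 probes per array lay above background, and 142 to 188 were saturated, so that a difference among the brightest genes could not be seen. The BM arrays correlated with r = 0.957 and the HSC arrays with 0.972, and each BM array lay nearer to the HSC array of its own number (0.967 and 0.974) than to the other BM array. Correlations of MSC arrays with those of the other groups ran from 0.918 to 0.952. Single genes were far apart between the BM arrays, such as the immediate early gene Fos at 12.03 and 7.47. The labelled tissue was checked on defining markers, of which S100a8 for neutrophils, Epb42 for red cells and Ms4a1 for B cells were above background on all 4 arrays. Mpo, Cd3e, Itga2b, Adgre1, Cd34 and Pecam1, defining markers of neutrophil precursors, T cells, megakaryocytes, macrophages, stem cells and endothelium, did not pass the filter described next, and neither did 11 of 15 skeletal muscle genes on the array. Nothing states that the pools were separate transplantations, so p-values measure the spread between these arrays. In whole marrow, fewer cells of a type and less RNA per cell cannot be told apart.

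Most of the measured probes lay close to the level of unmanipulated marrow. A probe was tested where both arrays of at least 1 of these groups were above background. A probe dim in 1 group thus entered through the group where it was high, so the filter favoured a gap in it. Such probes are in the counts of lists and of all probes below. Of 11148 probes tested without Y-linked genes, 8023 had a 95% interval of the HSC minus BM difference that lay inside a 2-fold change in either direction, 72.0% of all tested, and the median difference was 0.01. This measure is called "within 2-fold" below, and it bounds a difference to that width only. limma with Benjamini-Hochberg adjustment called 0 probes higher (0 percent) and 3 lower in HSC (0.0269 percent), and the next probe had an adjusted p of 0.0656. At an unadjusted p under 0.05 there were 335 higher (3.01 percent) and 261 lower (2.34 percent), together 596 probes. Both HSC arrays lay above both BM arrays for 2153 probes (19.3 percent) and below both for 1705 (15.3 percent). These shares are the background for the counts of gene lists, and none of the lists was tested as a set. The median margin of the intervals to either side was 0.59 on the log2 scale, and differences smaller than that could mostly not be seen. The share within 2-fold depended on the processing. It was 58.4 percent in the deposited values, 60.6 with background subtraction, 65.6 with an offset of 16 and 56.7 without a filter on dim probes. Cyclic loess gave 73 percent, and probes above background on all 4 arrays 77.2 percent. The count within 2-fold rested on all arrays, as it dropped to 6234 without BM array 1, 5062 without BM array 2, 4795 without HSC array 1 and 5268 without HSC array 2, or between 40.6 and 54 percent of the probes then tested.

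Platelet genes were the only list with called genes, and these were lower in HSC. Platelets and the megakaryocytes that shed them carry chemokines in their granules and a set of adhesion receptors on their surface. Of 23 tested genes of this list, 2 were called lower and 15 lay lower on both HSC arrays than on both BM arrays, where 15.3 percent of all probes did. Among the 15, Gp1ba, Gp1bb, Alox12, F2rl2 and Zfpm1 passed the filter through BM only. The median difference of the list was −0.44, and it stayed negative under every alternative setting that was tried. In 10 genes, or 43.5 percent, the difference was bounded within 2-fold.

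The promoters of the 2 called platelet genes are shown because these genes carried the firmest differences of the comparison. Each sequence runs from 250 bases before to 50 after the start of the gene (RefSeq, GRCm38.p6), Ppbp at chr5:90768268-90768567 on the plus strand and Treml1 at chr17:48359666-48359965 on the plus strand. Capitals mark the ETS motif GGAAGT or its reverse ACTTCC, which was found in 23.8% of 32851 mouse promoters.
Ppbp: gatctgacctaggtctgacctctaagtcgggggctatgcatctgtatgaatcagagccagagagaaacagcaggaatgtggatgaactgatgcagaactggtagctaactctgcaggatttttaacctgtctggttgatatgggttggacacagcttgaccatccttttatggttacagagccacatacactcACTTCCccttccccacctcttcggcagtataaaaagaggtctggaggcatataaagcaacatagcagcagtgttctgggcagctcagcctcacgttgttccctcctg
Treml1: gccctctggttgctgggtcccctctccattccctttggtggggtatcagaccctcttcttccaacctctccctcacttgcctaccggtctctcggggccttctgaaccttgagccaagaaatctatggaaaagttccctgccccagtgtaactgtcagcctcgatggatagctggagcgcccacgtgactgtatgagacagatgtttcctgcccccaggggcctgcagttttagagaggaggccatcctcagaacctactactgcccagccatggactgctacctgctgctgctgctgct
The Ppbp promoter held 1 ETS motif, and the Treml1 promoter held neither this motif nor the GATA motif AGATAA or TTATCT (11.2% of promoters). Among 20 tested platelet genes with a promoter entry, 6 had the ETS and 3 the GATA motif, and among the 13 lower without overlap the counts were 3 and 2.

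Ppbp, which encodes the platelet basic protein of the granules, had levels of 14.89 and 14.84 on the BM arrays and 12.30 and 12.68 on the HSC arrays. The groups were far apart, and both BM spots were saturated. Ppbp was therefore at least 5.20-fold lower in HSC (log2 difference −2.38, SE 0.22, adjusted p 0.0388 by limma). Treml1, a receptor kept in platelet granules, read 11.49 and 11.62 in BM and 9.01 and 9.39 in HSC, which was 5.10-fold lower (−2.35, SE 0.22, adjusted p 0.0388). Both arrays of HSC again lay well under both of BM. The MSC arrays were lower still, at 11.03 and 10.82 for Ppbp and 8.22 and 8.28 for Treml1. The difference of MSC from HSC passed the test for Ppbp (−1.57, adjusted p 0.0493) and not for Treml1 (−0.95, adjusted p 0.122). Without HSC array 1 neither gene was called (adjusted p 0.07 for both), and without BM array 1 only Treml1 was. Both calls were also lost with background subtraction (adjusted p 0.0559), an offset of 16, the deposited values, no filter, the 4 arrays alone and a block on pool number (0.223), while the differences stayed between −2.57 and −2.15.

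The platelet receptor genes had the same direction without passing the test. Clec1b, the podoplanin receptor CLEC-2, read 11.98 and 11.96 in BM and 10.20 and 10.23 in HSC, and its −1.75 had an SE of 0.20 and an adjusted p of 0.0912. The 2 arrays of each group were almost equal, and the gap between groups was 3.37-fold. Gp1bb, a chain of the receptor for von Willebrand factor, read 9.69 and 9.26 in BM and 7.52 and 8.10 in HSC (−1.67, SE 0.27, adjusted p 0.28). Gp1ba, its partner chain, read 9.16 and 7.85 in BM and was not above background on either HSC array, at least 1.99-fold lower. Gp9, the third chain of that complex, lay at 10.25 and 10.62 against 9.33 and 10.12 (−0.71, SE 0.33), a narrower gap than that of Gp1bb. Pf4, the other abundant granule chemokine, read 11.67 on its only usable BM array and 9.18 and 9.29 in HSC (−2.43, SE 0.68, adjusted p 0.836). The arachidonate lipoxygenase gene Alox12 was at least 1.77-fold lower, with 8.41 and 8.27 in BM and no HSC array above background. The tetraspanin gene Cd9 lay at 13.23 and 12.85 against 12.68 and 11.62 (−0.89, SE 0.35).

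Regulators of the megakaryocyte line did not share this gap. Gata1, a transcription factor of both the megakaryocyte and the erythroid lines, read 10.82 and 11.15 against 10.60 and 11.00 (−0.19, interval −0.91 to 0.54). Nfe2, which drives platelet formation, was at 12.09 and 12.17 against 12.06 and 11.61. The cyclooxygenase gene Ptgs1 and the P-selectin gene Selp were also within 2-fold, at 0.04 and 0.32. These levels overlapped or nearly met between groups, where those of Ppbp, Treml1 and Clec1b were separated. Itga2b, Itgb3, Gp5 and Fli1 were among the 10 genes of the list on the array that did not pass the filter.

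**Figure D1:**
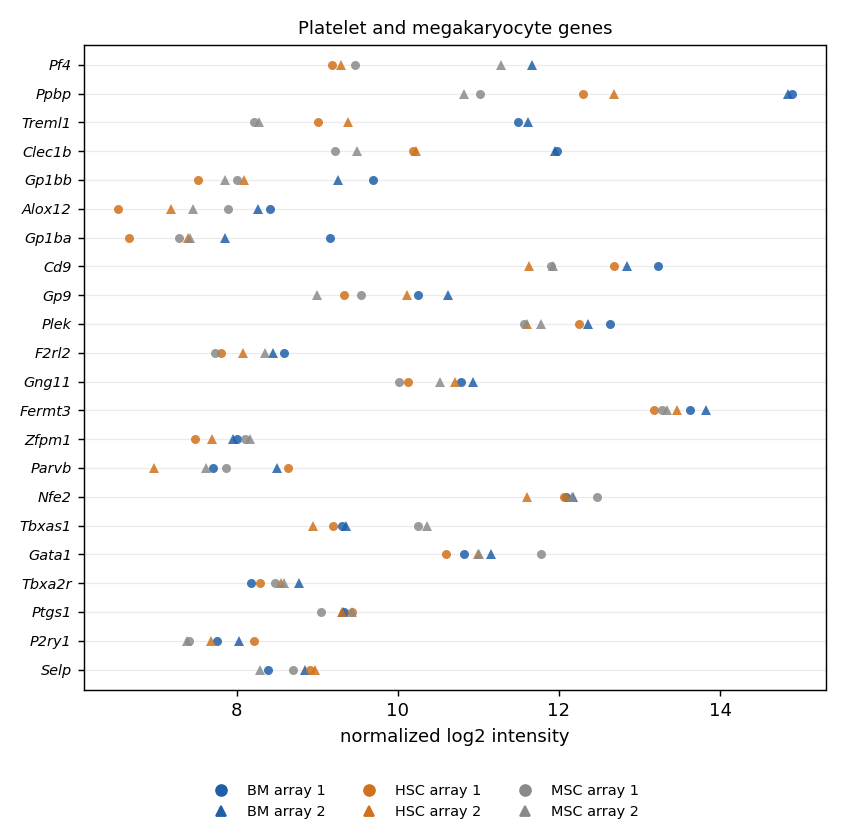
Normalized log2 intensity (x axis) of 22 of the 23 tested platelet and megakaryocyte genes (y axis, ordered by the HSC minus BM difference), with 1 point per array, circles for array 1 and triangles for array 2. Ppbp, Treml1 and Clec1b show both BM points well to the right of both HSC points, while Ptgs1 and Tbxa2r have points of both groups together, and Pf4 lacks a point for BM array 1.

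Red cell genes were mixed, and for several the arrays of 1 group were further apart than the groups. The erythroid line fills itself with hemoglobin and lays a spectrin skeleton under its membrane. Hbb-bt, a beta globin gene, was saturated on all arrays. Epb42, a protein of the membrane skeleton, was within 2-fold at 0.36, and Tfrc, the transferrin receptor of cells that build hemoglobin, at 0.45. Slc4a1, the anion exchanger band 3, read 13.17 and 10.24 on the BM arrays and 12.12 and 10.80 on the HSC arrays. The HSC values thus lay between those of BM, and its difference of −0.25 had an SE of 0.87. Of 16 tested genes of this list 9 were within 2-fold (56.2 percent against 72.0 percent of all probes), 4 lay higher and 5 lower without overlap, and the median of −0.29 turned positive without BM array 1 or without HSC array 2.

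Heme synthesis and iron genes all leaned to the low side by small amounts. All 15 tested genes had a negative difference, with a median of −0.27. The range ran from −0.84 for the ferritin light chain Ftl1 to −0.02 for the mitochondrial iron importer Slc25a37. Ftl1 and Slc11a2 had no usable value on HSC array 1, and 1 BM spot of Ftl1 was saturated. Of the 15, 6 lay lower without overlap (15.3 percent of all probes), and 1 had an unadjusted p under 0.05 by limma (2.34 percent). Fech, the last enzyme of heme synthesis, read 13.95 and 13.66 in BM and 13.43 and 12.70 in HSC (−0.75, SE 0.28). In 9 of the 15 genes the difference was bounded within 2-fold.

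Among erythroid regulators and enzymes, Trim10 had the widest gap of all named genes without overlap. Trim10, which is needed for terminal erythroid differentiation, read 10.06 and 14.00 on the BM arrays and was not above background on either HSC array. The BM arrays themselves were far apart for it, and 1 of its BM spots was saturated. The mean of these BM arrays over the HSC bound was 22.5-fold, with an adjusted p of 0.623 by limma. Car1, a red cell carbonic anhydrase, read 13.75 and 13.59 in BM and 12.97 and 12.65 in HSC, 1.82-fold lower (−0.86, SE 0.21, adjusted p 0.643). Of 16 tested genes, 5 lay lower and 0 higher without overlap, 8 were within 2-fold, and the median was −0.25. Among the 5, Trim10 and Zfpm1 passed the filter through BM only. Tal1, a master regulator of blood formation, was level at 12.78 and 12.74 against 12.74 and 12.72 (interval −0.50 to 0.45). Epor, the erythropoietin receptor, read 10.12 and 7.65 in BM and 8.85 and 8.64 in HSC, so that the BM arrays enclosed the HSC arrays.

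Neutrophil granule genes could be compared only in part. The granulocyte line fills its granules in steps, and the genes of each step mark its stages of maturation. Of 23 tested genes, 15 were within 2-fold (65.2 percent, against 72.0 percent of all probes) and 0 passed an unadjusted p under 0.05, but 12 of the 23 were saturated on at least 1 array. S100a8, Camp and Ngp were saturated on all arrays and give no comparison. Of the 11 genes that were never saturated, 4 were within 2-fold, namely Cd177, Hp, Itgb2l and Ms4a3. Itgb2l, an integrin chain of maturing neutrophils, read 13.46 and 13.77 in BM and 13.71 and 13.41 in HSC (−0.06, SE 0.29). Hp, haptoglobin, read 14.42 and 14.43 against 14.42 and 14.28. Elane, the elastase of primary granules, was saturated on both BM arrays (14.99 and 14.98) and lay at 14.63 and 14.74 in HSC, at least 1.24-fold lower, and that direction reversed under median scaling.

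Genes of mature neutrophils varied more between the arrays of 1 group than between groups. Mmp9, a gelatinase of late granules, read 12.57 and 10.50 in BM and 11.45 and 9.77 in HSC. Cxcr2, the chemokine receptor of mature neutrophils, read 11.56 and 8.70 against 10.14 and 8.95. In both genes the first array of each group was the higher, and HSC lay inside or just below the range of BM. The list median of −0.06 turned positive under median scaling, without BM array 1 and without HSC array 2.

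Monocyte genes were mixed, and several but not all genes of resident macrophages lay on the high side. Fcgr1, the high-affinity receptor for IgG, read 9.30 and 9.26 in BM and 10.13 and 10.05 in HSC (0.81, SE 0.26, adjusted p 0.864). Vcan, a matrix proteoglycan made by classical monocytes, read 8.35 and 8.08 against 9.69 and 9.20 (1.23, SE 0.43). Cd14, the receptor for bacterial lipopolysaccharide, was 0.53 higher without overlap, and Csf1r, the receptor for the growth factor of the line, had overlapping levels of 11.32 and 10.42 against 10.64 and 9.24. Of 19 tested monocyte genes, 6 lay higher and 2 lower without overlap (19.3 and 15.3 percent of all probes). Of these 19 genes, 3 had an unadjusted p under 0.05 by limma with HSC higher (3.01 percent), and 7 were within 2-fold. Their median of −0.13 changed sign without BM array 1 or HSC array 2. In tissue macrophages that take up dying cells, the complement genes C1qa, C1qb and C1qc differed by 0.54, 0.50 and 0.51, all higher without overlap. C1qb read 12.60 and 12.34 in BM and 12.86 and 13.09 in HSC. Cd5l, a secreted macrophage protein, read 8.71 and 8.97 against 9.67 and 9.64 (0.82, SE 0.54). Apoe, a lipid carrier of macrophages, lay on the other side at −0.91 with overlapping arrays. Slc40a1, Mrc1, Cd163 and Vcam1 also had negative differences, between −0.25 and −0.08. The list thus had 7 positive and 5 negative differences. Its median of 0.43 was no larger than the median gap of 0.44 between the BM arrays. In all, 7 of 12 tested macrophage genes lay higher without overlap and 0 lower (19.3 and 15.3 percent of all probes), 0 passed an unadjusted p under 0.05, and 0 were within 2-fold. Among the 7, Siglec1 and Marco passed the filter through HSC only. The standard errors of this list drew on a wide gap between the MSC arrays, as in Cd5l with 9.72 and 11.60.

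Genes of eosinophils, basophils and mast cells were mixed. Of 14 tested genes, 9 were within 2-fold (64.3 percent against 72.0 percent of all probes), 3 of them saturated, 2 lay higher and 3 lower without overlap, and the median was 0.05, with the other sign under 2 of the alternatives. Prg2, the major basic protein of eosinophil granules, was saturated on all 4 arrays and gives no comparison. Cpa3, a carboxypeptidase of mast cells and basophils, read 10.44 and 10.57 against 11.00 and 11.26 (0.62, SE 0.21), and was the only member with an unadjusted p under 0.05.

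Genes for presenting antigen on MHC class II were lower in HSC almost throughout. Class II molecules carry peptides on the surface of dendritic cells, B cells and macrophages, and their genes are switched on together by the coactivator CIITA. Of 18 tested genes of the class II and dendritic cell list, 17 had a negative difference, 12 lay lower without overlap and 7 had an unadjusted p under 0.05 (against 2.34 percent of all probes). None passed adjustment over all probes. The median was −0.70 and stayed between −0.93 and −0.57 under the alternatives.

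The promoters of 2 class II genes are shown because they encode a beta and an alpha chain of the class II molecule that lay lower without overlap. Capitals mark the Y box core ATTGG or its reverse CCAAT, a short motif found in 37.4% of promoters and in all 7 class II chain and loading genes with a promoter entry. H2-Aa lies at chr17:34287774-34288073 on the minus strand and H2-Eb1 at chr17:34305617-34305916 on the plus strand.
H2-Aa: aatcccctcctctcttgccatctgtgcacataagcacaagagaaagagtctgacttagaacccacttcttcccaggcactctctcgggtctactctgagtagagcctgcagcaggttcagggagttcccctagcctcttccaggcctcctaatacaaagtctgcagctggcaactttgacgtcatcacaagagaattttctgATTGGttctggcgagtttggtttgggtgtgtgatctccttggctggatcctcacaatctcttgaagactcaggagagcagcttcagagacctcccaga
H2-Eb1: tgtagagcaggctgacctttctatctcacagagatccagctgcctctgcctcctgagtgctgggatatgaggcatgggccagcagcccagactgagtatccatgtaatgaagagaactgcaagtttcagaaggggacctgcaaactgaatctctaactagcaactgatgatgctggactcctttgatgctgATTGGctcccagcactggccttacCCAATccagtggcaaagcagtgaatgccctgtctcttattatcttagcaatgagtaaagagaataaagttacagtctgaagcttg

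H2-Eb1, a beta chain of class II, read 12.87 and 12.63 in BM and 11.54 and 11.32 in HSC, 2.49-fold lower (−1.32, SE 0.48, adjusted p 0.897). H2-Aa, an alpha chain, read 14.00 and 13.60 against 12.89 and 12.60 (−1.06, SE 0.41). Both HSC arrays were under both BM arrays in these genes, and the MSC arrays lay on either side, at 11.82 and 13.46 for H2-Eb1. H2-Ab1 followed with 13.14 and 11.79 in BM and 11.83 and 11.10 in HSC, where the groups met. Cd74, the invariant chain that guides class II through the cell, read 13.27 and 12.93 against 12.14 and 11.53 (−1.27, SE 0.57). Ciita, the coactivator itself, read 10.64 and 9.95 in BM and 9.07 and 9.25 in HSC, 2.20-fold lower (−1.14, SE 0.28, adjusted p 0.643). The genes of peptide loading had the same sign, with H2-DMb2 at −1.52, H2-Oa at −1.02, H2-Ob at −0.83 and H2-DMb1 at −0.81, each lower without overlap.

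Several genes that mark the dendritic cells themselves were closer to BM. Flt3, the receptor for their growth factor, read 8.45 and 8.43 in BM and 8.36 and 8.15 in HSC (−0.19, within 2-fold). Itgax, the integrin CD11c, was level at 9.28 and 9.34 against 9.38 and 9.18, and Ccr9 and Xcr1 were also within 2-fold. Clec9a was within 2-fold on its brighter probe at −0.23, while a second probe lay higher without overlap at 0.71. Irf8, a transcription factor of the dendritic and monocyte lines, lay at 10.71 and 9.97 against 9.90 and 9.73 (−0.53). Tcf4, another member of the list, lay at 12.15 and 11.34 against 11.25 and 11.14 (−0.55). Both were lower without overlap. Cd209a, a lectin of monocyte-derived dendritic cells outside the list but among the 15 largest negative differences, read 10.94 and 11.33 in BM and 9.33 and 9.61 in HSC (−1.66, SE 0.23, adjusted p 0.176). Its levels were separated by more than the spread of either group. Mature B cells also carry class II, and their list lay lower along with it. Averaged over the 11 mature B cell genes with a value on every array, the HSC arrays lay 0.44 and 0.46 below the BM mean, and the BM arrays 0.12 to either side of it. For 16 class II and dendritic cell genes the HSC arrays lay 0.67 and 0.82 below, and the BM arrays 0.19 to either side. The part of mature B cells in the class II values was not tested.

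The B cell line was split by stage in part of its genes. B cells begin in marrow as precursors that cut and join their antibody genes, with RAG enzymes and a surrogate light chain, before they leave for the blood and return as mature cells. Several genes of that early stage lay above BM and several of the mature stage below it. Of 16 tested early genes, 6 lay higher and 0 lower without overlap and 5 had an unadjusted p under 0.05 (against 3.01 percent), with a median of 0.28. Of 13 tested mature genes, 6 lay lower and 0 higher without overlap and 3 had an unadjusted p under 0.05 by limma. Among the 6, Cr2, Cd83 and Cd22 passed the filter through BM only, and Cr2 and Cd22 were also among the 3. The median of the mature genes was −0.43, less than the median gap of 0.55 between the BM arrays over the same genes. No gene of either list passed adjustment.

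Dntt, the terminal transferase that adds bases at antibody gene joints, read 8.83 and 8.68 in BM and 10.70 and 10.91 in HSC, 4.14-fold higher (2.05, SE 0.40, adjusted p 0.40). Rag2, a subunit of the recombinase, read 9.12 and 9.55 against 10.73 and 10.81 (1.44, SE 0.23, adjusted p 0.261). Both HSC arrays were above both BM arrays by more than 1 unit in these genes. Vpreb1, a part of the surrogate light chain, read 11.94 on its only usable BM array and 14.23 and 14.58 in HSC, a difference of 2.47 (SE 0.32, adjusted p 0.191). Vpreb3 read 12.42 and 12.59 against 13.14 and 13.25. The B lineage regulators Ebf1 and Bach2 were each 0.62 higher, with unadjusted p-values of 0.045 and 0.043 by limma. Rag1, the partner of Rag2, did not rise clearly, with overlapping levels of 9.40 and 8.48 against 9.47 and 9.05 (0.32). Il7r, Blnk, Foxo1 and Lef1 overlapped as well. Pax5 lay higher but within 2-fold at 0.24, and passed the filter through HSC only.

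Pan-B genes stood at the BM level. Cd79b, which carries the signal of surface antibody into the cell, read 12.13 and 12.28 in BM and 12.04 and 12.41 in HSC (0.02, interval −0.62 to 0.66). Cd79a, its partner chain, was within 2-fold at −0.17. On the MSC arrays Cd79b read 8.66 and 9.28, so that this gene parted MSC from both other groups.

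Among mature genes, Cr2, a complement receptor of mature B cells, read 8.79 and 9.27 in BM and was not above background in HSC, at least 2.68-fold lower (adjusted p 0.311). Fcmr, the receptor for IgM, read 11.46 and 11.98 against 10.41 and 11.11 (−0.96, SE 0.31). Cd22, an inhibitory receptor, read 8.83 and 8.51 against 8.25 and 7.65. Ms4a1, which encodes CD20, overlapped at 12.22 and 11.67 against 11.76 and 11.65, and Fcer2a, the low-affinity receptor for IgE, was within 2-fold at −0.32. The mature list was therefore not lower throughout, and Blk, a B cell kinase already active in precursors, lay at 0.50.

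**Figure D2:**
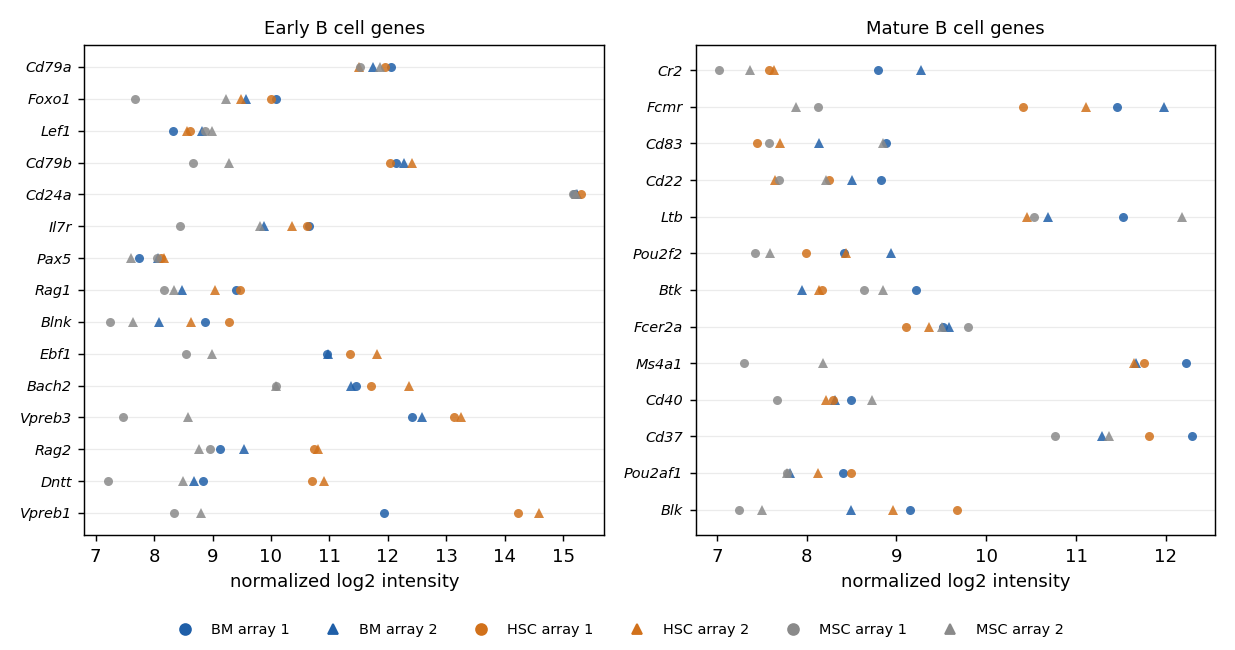
Normalized log2 intensity (x axis) of 15 of the 16 tested early B cell genes (left) and the 13 tested mature B cell genes (right), with 1 point per array, circles for array 1 and triangles for array 2. Rag2, Dntt and Vpreb1 have both HSC points to the right of BM, Cr2 and Fcmr have them to the left, and for most early genes the MSC points lie furthest left.

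Antibody and plasma cell genes were mixed, and 0 of 12 had an unadjusted p under 0.05. Ighm, the heavy chain of IgM, read 15.12 and 14.05 in BM and 13.88 and 13.34 in HSC (−0.97, SE 0.87), and Jchain, which joins antibody units, read 15.01 and 14.39 against 13.97 and 13.59 (−0.92, SE 0.50). Both were lower without overlap, but the BM arrays were themselves apart. Of the 12, 2 lay higher and 4 lower without overlap, and 7 were within 2-fold, among them Prdm1, the regulator of plasma cell fate, at 0.10.

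The signalling chains of T cells were close to BM in level, though few genes of T or NK cells could be bounded. Cd3g and Cd3d, chains of the T cell receptor complex, read 10.63 and 10.59 against 10.82 and 10.52, and 10.91 and 10.60 against 10.67 and 10.23. Their standard errors of 0.68 and 0.70 exceeded these gaps because the MSC arrays, which share the estimate of the spread, were far apart (10.48 and 12.95 for Cd3g). Cd4 and Tcf7 were within 2-fold, each at −0.12. Bcl11b, a regulator of T cell commitment, read 8.28 and 8.04 in BM and was above background on neither HSC array, at least 1.56-fold lower, and Gata3 read 9.01 and 8.57 against 7.87 and 7.88 (−0.92, SE 0.41). Cd28, a costimulatory receptor, lay at 10.32 and 11.23 in BM and 11.35 and 12.03 in HSC (0.91, SE 0.36). In all, 4 of 16 tested T cell genes were within 2-fold, and the median was −0.16. Without overlap, 1 lay higher and 7 lower, against 19.3 and 15.3 percent of all probes. Among the 7, Bcl11b, Thy1 and Gata3 passed the filter through BM only. Of 13 tested NK genes, 2 lay higher and 3 lower without overlap. Among the 2, Gzmk passed the filter through HSC only. The NK median of −0.04 changed sign without BM array 2 or HSC array 1, and Nkg7 read 11.52 and 11.23 against 11.27 and 10.99. Klra4, an NK receptor gene outside the list, was at least 3.19-fold lower, with 9.36 and 9.02 in BM and no HSC array above background (adjusted p 0.311), and it has close relatives that its probe may also read.

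Stem and progenitor genes gave a mixed picture, and many defining ones could not be read. Meis1, a transcription factor of stem cells, read 9.87 and 10.03 in BM and 8.65 and 8.66 in HSC, 2.45-fold lower (−1.29, SE 0.24, adjusted p 0.379). Kit, the receptor for stem cell factor, read 10.56 and 9.69 against 9.45 and 8.97 (−0.92, SE 0.37). The HSC arrays were lower in both genes, with a clear gap in Meis1 and a narrow one in Kit. Ly6a, which encodes Sca-1 and also responds to interferon, read 12.33 and 12.11 against 12.48 and 12.89 (0.47, SE 0.43). Runx1, Myb and Mecom, regulators of blood stem cells, were within 2-fold at 0.03, −0.19 and 0.25. Of 14 tested genes 8 were within 2-fold, and 10 others on the array, Cd34 and Procr among them, did not pass the filter.

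Niche factors were mixed, and many bone and matrix genes lay above BM. Of 13 tested niche genes, 7 were within 2-fold (53.8 percent against 72.0 percent of all probes), and 2 lay higher and 0 lower without overlap. Kitl, which encodes stem cell factor, read 11.23 and 10.98 in BM and 11.54 and 11.75 in HSC (0.54, SE 0.31). Cxcl12, the chemokine that holds stem cells in marrow, read 10.67 and 7.66 in BM and 8.80 and 8.10 in HSC, so that the BM arrays enclosed the HSC arrays. Of 17 tested bone and matrix genes, 10 lay higher and 2 lower without overlap, against 19.3 and 15.3 percent of all probes. An unadjusted p under 0.05 by limma in the higher direction was found for 8, against 3.01 percent. Mmp13, counted in the 10 and in the 8, passed the filter through HSC only. The median of the list, 0.55, stayed between 0.41 and 0.73 under the alternatives. Bglap, the osteocalcin of bone-forming cells, read 8.09 and 8.50 in BM and 9.55 and 10.28 in HSC, 3.08-fold higher (1.62, SE 0.53, adjusted p 0.894). Col3a1, a fibrillar collagen, read 8.66 and 8.27 against 9.28 and 9.70 (1.02, SE 0.24). Tnc, the matrix protein tenascin C, read 12.35 and 12.10 against 13.02 and 13.21 (0.89, SE 0.21), with both groups narrow. Sparc and Lox, a matrix glycoprotein and a collagen cross-linking enzyme, were 0.83 and 0.69 higher. On the other side, Col5a1 lay lower without overlap at −0.57 and Acp5, a phosphatase of osteoclasts, at −0.13. Col1a1, Col1a2 and Postn were among the 16 genes that did not pass the filter, so the main collagen of bone was not read.

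Fat cell genes held some of the wider gaps, without a common direction of the list. Cfd, the adipsin secreted by fat cells, read 8.17 and 8.53 in BM and 10.34 and 10.24 in HSC, 3.84-fold higher (1.94, SE 0.36, adjusted p 0.379). Fabp4, a fatty acid carrier, read 13.12 and 12.09 against 13.20 and 13.56, and Adipoq, a hormone of fat cells, 12.56 and 12.28 against 12.60 and 13.13. Gpam, an enzyme of triglyceride synthesis, lay at 9.57 and 10.26 against 10.86 and 11.10 (1.07, SE 0.27). Fasn and Scd1, enzymes that make fatty acids, lay on the other side at −0.38 and −0.46. Of 13 tested genes 5 lay higher and 4 lower without overlap, and the median of −0.05 turned positive in the deposited values, without BM array 1 and without HSC array 2. Endothelial genes had a median of 0.00, with 1 of 13 higher and 2 lower without overlap, and Pecam1, Cdh5 and Emcn did not pass the filter. Ramp2, the 1 higher gene, passed it through HSC only.

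Interferon response genes had the highest list median above BM, in a range that overlapped that of the bone and matrix genes. Interferons switch on a shared set of genes through STAT and IRF proteins, which bind a short element in their promoters. Of 27 tested genes, 13 lay higher and 1 lower without overlap, and 10 had an unadjusted p under 0.05, all higher, where 19.3 percent and 3.01 percent of all probes did so. The median was 0.64, between 0.44 and 0.71 under the alternatives, and only 4 genes were within 2-fold. None passed adjustment.

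The promoters of 2 of these genes are shown because both levels and sequence can be read side by side. Capitals mark the interferon-stimulated response element, searched as GAAA, 2 bases of any kind and GAAA on both strands, which was found in 3.44% of promoters. Tgtp1 lies at chr11:48992197-48992496 on the minus strand and Ifit1 at chr19:34640639-34640938 on the plus strand.
Tgtp1: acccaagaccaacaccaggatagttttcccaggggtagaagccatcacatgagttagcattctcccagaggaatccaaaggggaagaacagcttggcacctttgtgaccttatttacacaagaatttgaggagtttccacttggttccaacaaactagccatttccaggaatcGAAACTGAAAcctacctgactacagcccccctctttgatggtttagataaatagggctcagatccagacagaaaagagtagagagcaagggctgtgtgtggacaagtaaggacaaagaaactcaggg
Ifit1: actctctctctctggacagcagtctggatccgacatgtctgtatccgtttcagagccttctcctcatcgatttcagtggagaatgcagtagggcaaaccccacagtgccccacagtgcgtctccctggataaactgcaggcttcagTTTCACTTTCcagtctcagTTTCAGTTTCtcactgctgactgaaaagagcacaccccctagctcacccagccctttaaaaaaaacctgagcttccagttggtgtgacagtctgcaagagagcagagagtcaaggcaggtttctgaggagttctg
Tgtp1 held 1 such element and Ifit1 held 2. Of 20 tested list members with a promoter entry 11 held the element, and of the 10 that lay higher without overlap 5 did.

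Tgtp1, a GTPase induced by interferon gamma, read 12.33 and 12.34 in BM and 13.84 and 13.90 in HSC, 2.90-fold higher (1.53, SE 0.20, adjusted p 0.153). Each pair of arrays was nearly equal, and the MSC arrays read 14.21 and 14.02. The gene has a near-identical copy, Tgtp2, that the probe may also read. Ifit1, an antiviral RNA-binding protein, read 9.54 and 9.14 against 10.73 and 10.63 (1.34, SE 0.32, adjusted p 0.642). Zbp1, a sensor of nucleic acids, read 9.80 and 9.68 against 11.12 and 10.89 (1.27, SE 0.22, adjusted p 0.311). The chemokine gene Cxcl9 read 9.19 and 8.99 in BM and 11.66 and 11.15 in HSC, 4.98-fold higher (2.31, SE 0.44, adjusted p 0.39). Iigp1, another interferon-inducible GTPase, read 8.90 and 8.31 against 10.83 and 9.92. Irf7, which amplifies the response, lay at 13.72 and 13.88 against 14.03 and 14.86 (0.64, SE 0.31). Not every member took part. Mx1 read 8.36 and 8.12 in BM and 7.80 and 7.78 in HSC, and the immune proteasome gene Psmb8 and Irf1 were within 2-fold.

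**Figure D3:**
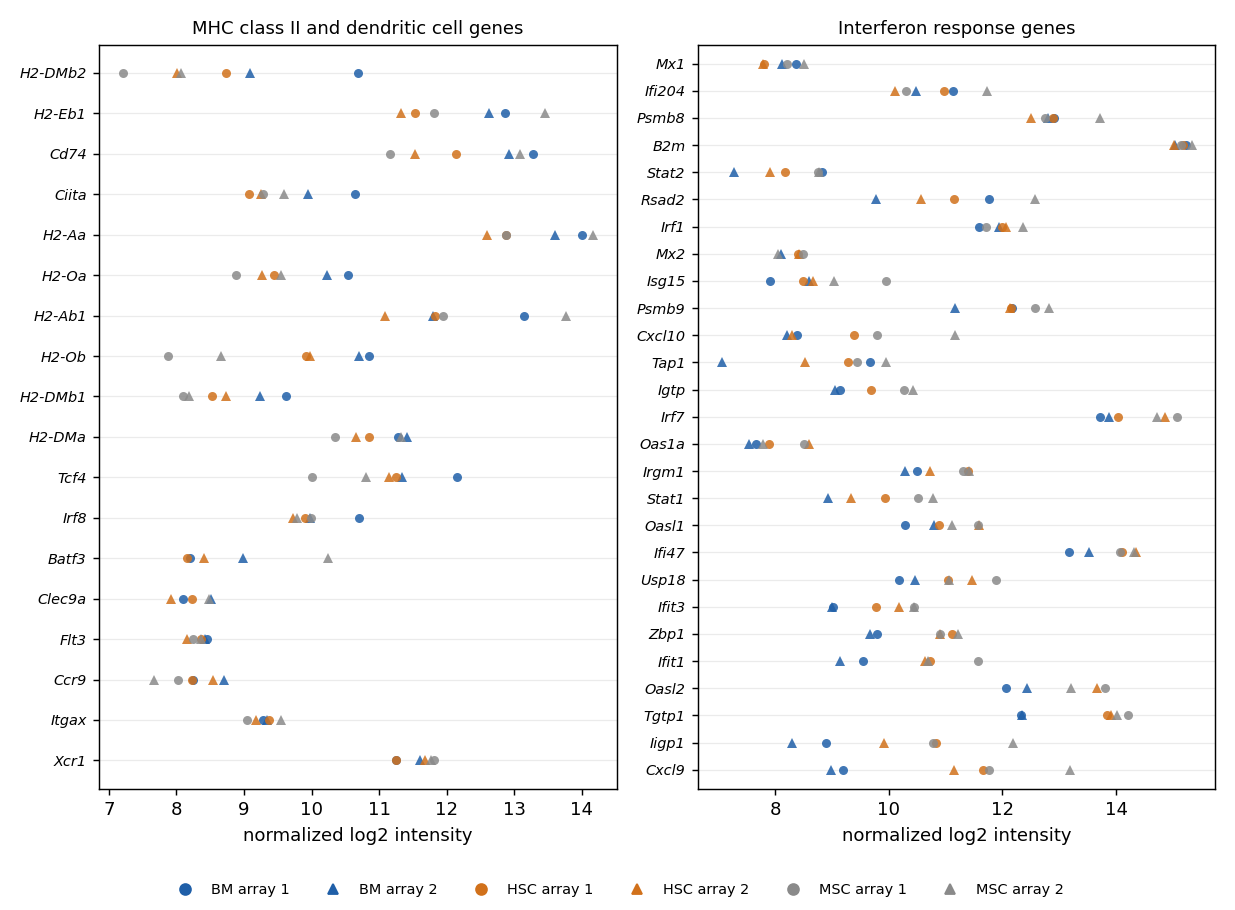
Normalized log2 intensity (x axis) of the 18 tested MHC class II and dendritic cell genes (left) and the 27 tested interferon response genes (right), ordered by the HSC minus BM difference, with 1 point per array. From H2-DMb2 to H2-DMa most HSC points lie left of both BM points, and in the lower part of the right panel, from Ifi47 to Cxcl9, they lie to the right.

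Inflammatory mediators pointed both ways. Ccl8, a chemokine of tissue macrophages with the largest positive difference among named genes without overlap, read 9.99 and 9.02 in BM and 12.76 and 12.28 in HSC, 8.07-fold higher (3.01, SE 0.48, adjusted p 0.261). Both HSC arrays were over 2 units above both BM arrays, and the MSC arrays were higher again at 13.92 and 15.20. Il1b, a pyrogenic cytokine, was on the low side at 12.27 and 12.63 against 11.78 and 11.55 (−0.79, SE 0.22, adjusted p 0.808), as was the chemokine gene Ccl3 at −0.92. Of 19 tested mediators 6 lay higher and 8 lower without overlap, against 19.3 and 15.3 percent of all probes. In 11 the difference was within 2-fold, and Il6 differed by 0.42 within that bound.

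Genes of the damage response were bounded about as often as other probes, with some higher values among p53 targets. p53 is stabilized by DNA breaks and drives genes that stop the cell cycle or start cell death. Of 21 tested targets, 14 were within 2-fold (66.7 percent against 72.0 percent of all probes). Without overlap, 9 lay higher and 3 lower, against 19.3 and 15.3 percent of all probes. An unadjusted p under 0.05 by limma was found for 4, all higher, against 3.01 percent. Cdkn1a, the inhibitor p21, read 9.95 and 9.50 in BM and 10.20 and 10.34 in HSC, 1.46-fold higher without passing the test (adjusted p 0.897). On the MSC arrays it read 12.35 and 12.54, and the difference of MSC from HSC passed at 2.17 (adjusted p 0.0247). Ccng1 was 0.54 higher (SE 0.20), and Pmaip1, the death gene NOXA, 0.64 higher (SE 0.21), while Bax was level at 10.65 and 10.28 against 10.64 and 10.34. Gdf15, a stress-induced growth factor, read 8.14 and 8.66 in HSC and was above background on neither BM array, at least 1.95-fold higher. Of 19 tested DNA repair genes 13 were within 2-fold (68.4 percent) and 0 had an unadjusted p under 0.05.

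Several proliferation genes had nearly equal levels in both groups, while the list was bounded within 2-fold no more often than all probes. Top2a, a topoisomerase of dividing cells, read 11.80 and 11.38 in BM and 11.88 and 11.31 in HSC, and its difference of 0.00 had an interval from −0.63 to 0.63. Cdk1, the kinase that starts mitosis, read 14.08 and 14.27 against 14.28 and 14.31, and Ccna2, cyclin A, 13.52 and 13.50 against 13.64 and 13.53. Mki67 was saturated on all arrays. Of 29 tested genes 19 were within 2-fold (65.5 percent against 72.0 percent of all probes), 6 lay higher and 1 lower without overlap, and the median of −0.07 turned positive under median scaling, without BM array 1 and without HSC array 2. Kif20a, a kinesin of cell division, was the only member with an unadjusted p under 0.05, at −0.62, and Mcm6, a part of the replication helicase, had the widest gap at −0.91 with overlapping arrays.

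Housekeeping complexes marked the level of agreement that these arrays could reach. Of 39 tested proteasome genes, none of them saturated, 35 were within 2-fold (89.7 percent against 72.0 percent of all probes). Of 69 genes of oxidative phosphorylation 59 were (85.5 percent), 49 of them never saturated. Of 73 cytosolic ribosomal protein genes 67 were (91.8 percent), but 53 of the 73 were saturated on at least 1 array. Psmb3, a proteasome subunit, read 13.85 and 13.82 in BM and 14.03 and 14.02 in HSC. Rpl26 was an exception among ribosomal genes, with 10.98 and 11.17 against 11.98 and 12.13 (0.98, SE 0.20). The reference genes Taf12 and Rps27a differed by 0.02 and 0.09, Taf12 with 1 BM array missing and Rps27a saturated.

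**Figure D4:**
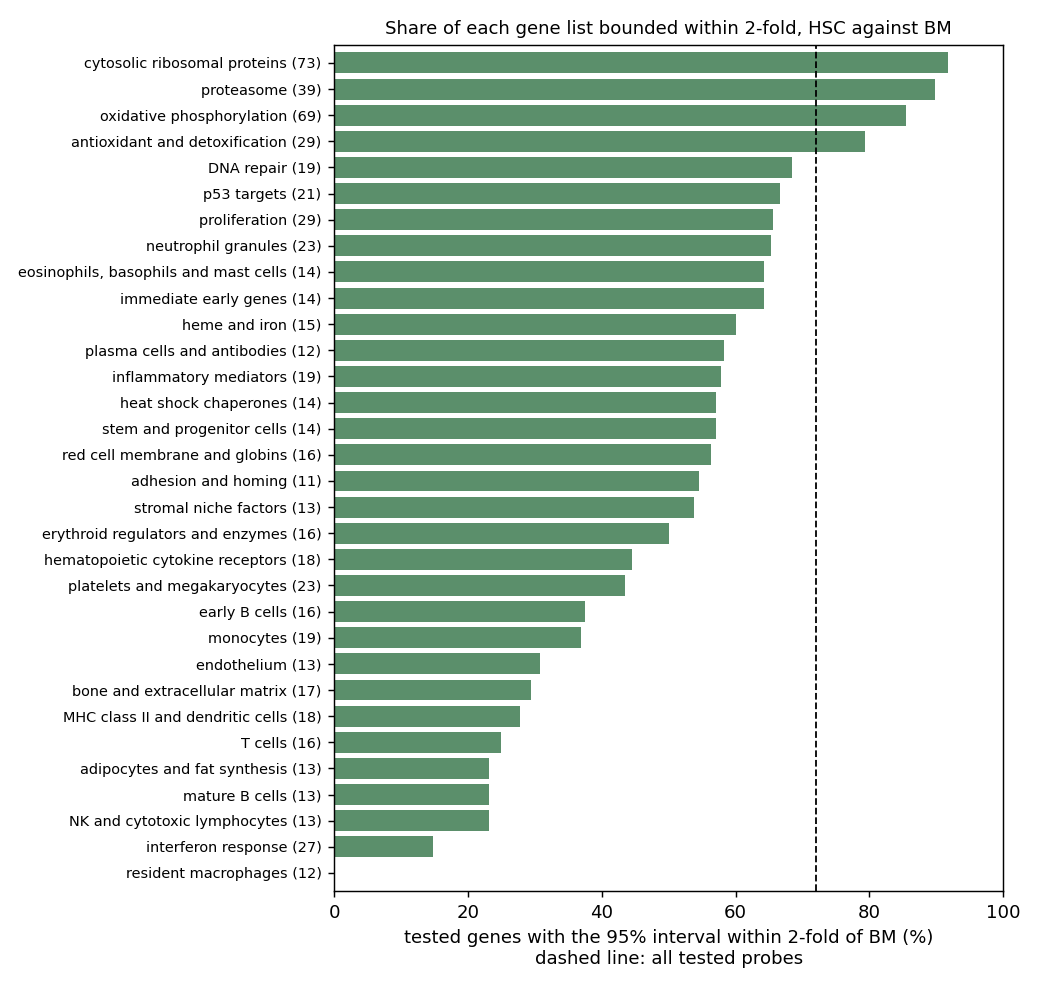
Share of the tested genes of each list with a 95% interval of HSC minus BM inside a 2-fold change (x axis, percent, from 0 to 100), with the number of tested genes beside each list on the y axis. The skeletal muscle list, with only 4 tested genes, is not drawn. The dashed line marks 72.0 percent for all probes. Proteasome, ribosomal, oxidative phosphorylation and antioxidant genes exceed it, and resident macrophage, interferon and mature B cell genes fall short of it.

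**Figure D5:**
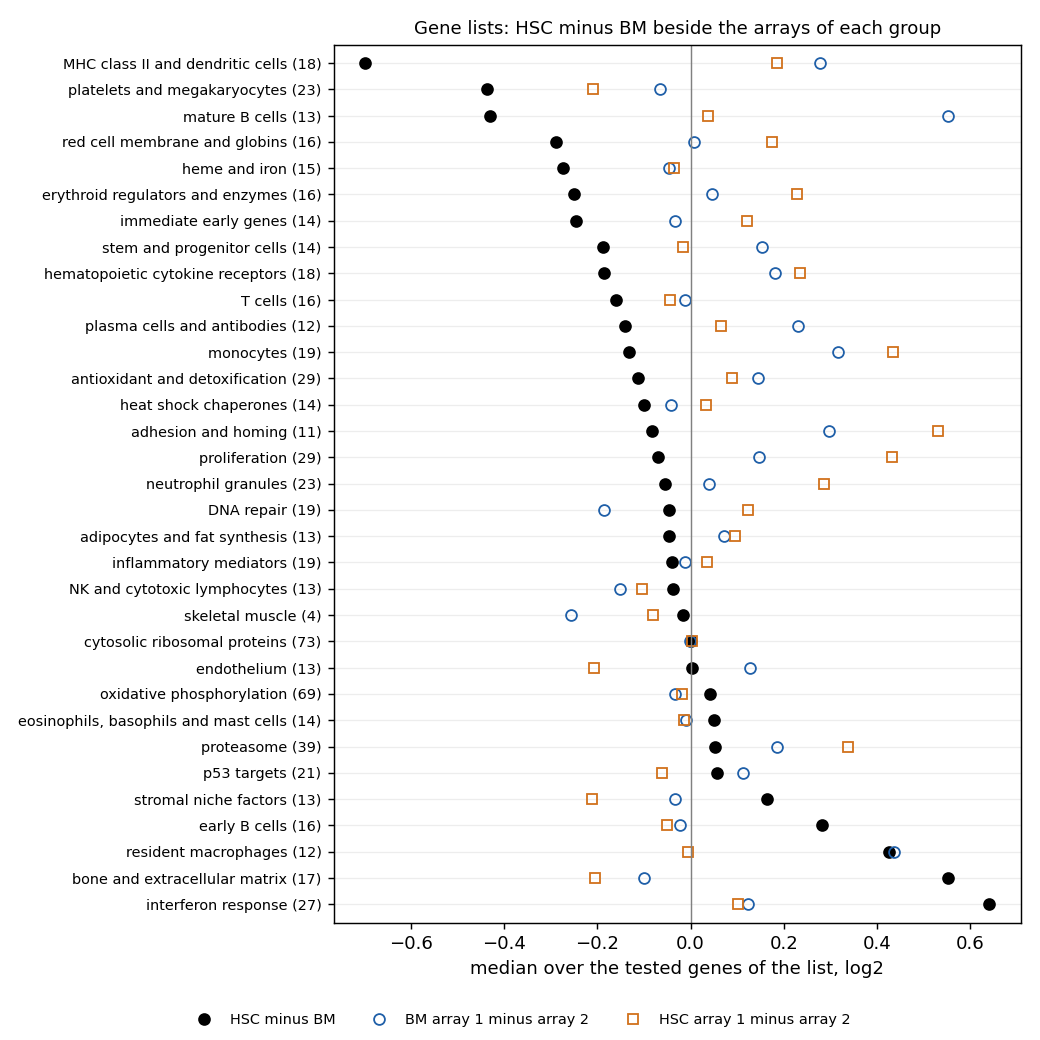
Median over the tested genes of each list (y axis, number of genes in parentheses) on the log2 scale (x axis), filled circles for HSC minus BM, open circles for BM array 1 minus BM array 2 and open squares for HSC array 1 minus HSC array 2. The medians of the class II, platelet, interferon and bone lists lie further from 0 than both gaps between arrays of 1 group, while those of mature B cells, macrophages, neutrophil and proliferation genes do not.

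The third called gene was Zc3h11a, which encodes a zinc finger protein of mRNA export on chromosome 1. Its called probe read 11.28 and 11.20 in BM and 9.20 and 9.21 in HSC, 4.09-fold lower (−2.03, SE 0.20, adjusted p 0.0388). The MSC arrays were at 11.06 and 11.22, level with BM, and MSC against HSC passed at 1.93 (adjusted p 0.0215). A second probe for the same gene did not follow, with 11.14 and 10.29 in BM and 11.49 and 10.60 in HSC (0.33, SE 0.38). The call therefore holds for 1 probe and not for the gene, and it was lost without BM array 1, HSC array 1 or HSC array 2. Among 20 list or named genes with several tested probes, 4 had probes more than 1 apart. The others were Gnaz (−1.72 and −0.46), Arpp21 (1.79 and −0.22) and Slamf7 (1.28 and 0.10).

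Genes that the study had measured by quantitative PCR for MSC against HSC were also read between HSC and BM. The kallikrein genes Klk1b5 and Klk1, which encode secreted proteases, were lower in HSC. Klk1b5 read 10.47 and 10.53 in BM and 9.13 and 9.15 in HSC, 2.56-fold lower (−1.36, SE 0.19, adjusted p 0.176), and Klk1 read 9.87 and 10.68 against 8.84 and 8.96. Because these genes are close relatives, a probe may read more than 1 of them. Uchl1, a ubiquitin hydrolase, read 9.18 and 9.55 against 10.18 and 10.29 (0.87, SE 0.22), and Col5a3, a minor collagen, 9.03 and 9.33 against 10.06 and 10.36 (1.03, SE 0.23). Pink1, a mitochondrial kinase, read 9.55 and 8.11 in BM and 7.92 and 8.08 in HSC, with neither HSC array above background. BM array 2 was thus almost level with HSC. The difference of −0.83 (SE 0.44, interval −1.86 to 0.20) had an adjusted p of 0.897 by limma. Syk, Gstm5 and Emid1 were within 2-fold.

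Of the 15 largest positive and 15 largest negative differences without overlap and with an unadjusted p under 0.01, drawn from 57 higher and 46 lower probes, several belonged to none of the lists. Smtnl2 read 9.47 and 9.64 in BM and 10.94 and 11.37 in HSC (1.60, SE 0.23, adjusted p 0.176), and the MSC arrays were not above background at 7.24 and 7.39. Hmgcll1, a lyase of ketone body synthesis, read 8.66 and 8.76 against 10.08 and 10.38. Both showed tight pairs in each group. Ppfia4 was above background only in HSC, at 8.72 and 8.71 and at least 2.42-fold higher. On the low side, the corepressor gene Runx1t1 read 10.04 and 10.35 against 8.16 and 9.26, and Ptprv, a receptor phosphatase gene, 9.25 and 9.22 against 6.60 and 8.22, with the HSC arrays far apart in both. Fhl1, a LIM domain gene, read 8.94 and 9.11 against 7.88 and 7.39, and MSC against HSC passed there at 1.71 (adjusted p 0.0497).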

How the data were processed

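Total RNA of pooled marrow was labelled as biotin cRNA and hybridised to 6 CodeLink mouse bioarrays, 1 per slide. The authors scanned the arrays with CodeLink Expression Analysis 4.0.0.23520, and the deposited scanner files give a spot mean and a median local background as linear intensity for 20289 spots, 19801 of them gene probes. A deposited table of log2 values of the same arrays, with its normalization not given in the sources used here, served as an alternative only.

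Spots flagged as masked, contaminated or unusable were left out, 209 to 558 per array. Intensities were background-corrected in limma 3.58.1 (R 4.3.3; normexp, offset 50), taken to log2 and quantile-normalized over the 6 arrays. A linear model with moderated variance was fitted to all 6 arrays, with the spread shared between groups and 3 residual degrees of freedom, and HSC was set against BM with Benjamini-Hochberg adjustment over 11153 probes at a threshold of 0.05. The 5 Y-linked probes were left out of all counts. The fit and its calls were tested on simulated data with independent errors. The counts within 2-fold, without overlap and of lists were not tested in that way. The interval measure took both ends of the 95% interval within 1 of 0 on the log2 scale. A group not above background, or saturated, on both arrays gave a bound, written as at least N-fold. The bound set the mean of the brighter group against, per array, the higher of the lowest signal among probes above background and the dim probe's own.

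Probe names came from sequence records, gene numbers and the platform annotation, for 14632 probes of 13831 genes. The other 5169 had no name here and entered the counts of all probes only. A gene with several probes was read on its brightest, unless another probe was called or among the largest differences. Gene lists numbered 33, with 851 distinct genes. The members and lists were chosen with earlier results of these data known. Genes were named where called, among the 15 largest differences in each direction without overlap (unadjusted p under 0.01), as defining, most different or brightest bounded members of a list, or as targets of quantitative PCR. Genes named beyond these were chosen after their values were seen, to show how a list varied. Some genes that entered the counts are not reported here by name. Alternatives were background subtraction, an offset of 16, cyclic loess and median scaling, the deposited values, other filters, a variance trend, the 4 arrays alone, each array left out, a block on pool number and the t-test of the methods.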

Additional observations from a re-analysis of the deposited data

How the results depend on the processing

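Of the 123 genes with a direction that were followed over the alternatives, 1660 values kept direction and side of the threshold, 24 fell short of it, 8 passed it and 1 reversed, Elane at 0.0135 under median scaling against −0.31. The count of probes higher in HSC, 0, became 2 under median scaling, 1 without a filter, 1 with a variance trend and 4 at the limits of the methods' t-test (p 0.01 and a ratio of 2.5), and leaving out 1 array gave 0 to 21. The count lower in HSC, 3, became 0 with background subtraction, 0 with an offset of 16, 0 in the deposited values, 0 with only the 4 arrays of HSC and BM, 1 without a filter and 6 at the t-test limits, and leaving out 1 array gave 0 to 65. After Benjamini-Hochberg adjustment the methods' t-test called 0 lower among 10547 probes (650 at an unadjusted p under 0.05, smallest adjusted p 0.0894). The causes of these changes were not tested, except that leaving out an array or using 4 arrays lowers the number of samples. Over these settings and those named next, Treml1 was called in 8, Ppbp in 7 and Zc3h11a in 6 of 15, with differences of −2.54 to −2.16, −2.57 to −2.15 and −2.18 to −1.99. Without HSC array 1 their adjusted p-values were 0.07, 0.07 and 0.095, without BM array 1 Ppbp reached 0.0625 and Zc3h11a 0.0745, and without HSC array 2 Zc3h11a reached 0.0869. Probes within 2-fold, 8023, numbered 4795 to 6234 when 1 array was left out. The same count was 6512 in the deposited values, 6752 with background subtraction, 7317 with an offset of 16 and 8133 with cyclic loess. Pool numbers only name the arrays: deviations of the same number correlated at 0.49 between BM and HSC, −0.259 between BM and MSC and −0.187 between HSC and MSC. A replicate block on them called 0 lower (smallest adjusted p 0.223), and with only the 4 arrays, an alternative chosen after seeing the data, the replicate block called 2 higher and 4 lower. With 1 array per slide and no scan time, a slide block could not be run. Median spot brightness was 2.10 to 2.69 times background, so that dim genes were read less surely than bright ones, and saturation hid differences among the brightest.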

Other observations

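Further groups of genes were read between the same arrays and are given as values. Antioxidant and detoxification genes were near BM, with 23 of 29 tested genes within 2-fold, 2 higher and 7 lower without overlap, and 0 at an unadjusted p under 0.05 by limma. Gpx4, which repairs oxidised membrane lipids, read 13.51 and 13.36 in BM and 13.43 and 13.26 in HSC. Hmox1, the heme-degrading enzyme, read 11.33 and 11.44 against 11.80 and 11.78. Of 14 immediate early genes, 9 were within 2-fold, and the median was −0.25. Without overlap, 7 lay lower and 1 higher, against 15.3 and 19.3 percent of all probes. Nr4a1, a nuclear receptor that cells induce within a short time of stimulation, read 10.99 and 11.21 in BM and 10.22 and 9.87 in HSC (−1.06, SE 0.25, adjusted p 0.642 by limma). Fos did not follow in order, as the BM arrays at 12.03 and 7.47 enclosed the HSC arrays at 8.84 and 8.29.

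Of 14 heat shock chaperone genes, 8 were within 2-fold, and the median of −0.10 had the other sign under 4 alternatives. Hspa1b, an inducible chaperone, read 9.20 and 9.60 in BM and 10.10 and 10.13 in HSC, and 11.87 and 10.95 in MSC. Of 11 adhesion and homing genes, 6 were within 2-fold, and Itgal, a chain of the integrin LFA-1, read 9.79 and 9.23 against 8.97 and 8.44. The median of these genes, −0.08, turned positive without BM array 1. Of 18 receptors for blood cytokines, 8 were within 2-fold, 1 lay higher and 3 lower without overlap, and the median was −0.19. Csf2ra, a chain of the GM-CSF receptor, read 12.40 and 12.45 in BM and 12.16 and 11.46 in HSC (−0.61, SE 0.28). No gene of these groups passed adjustment over all probes.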
